A study of Mus musculus with 17 samples.

Results

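Galectins, annexins, S100 proteins and the scaffold protein AHNAK were followed through cultures of purified mouse astrocytes. The set holds 10 genes, *Lgals1*, *Lgals3*, *Ahnak*, *Anxa1*, *Anxa2*, *Anxa5*, *S100a6*, *S100a10*, *S100a11* and *S100b*. They were taken by symbol from the 56691 gene rows of the count table, and each symbol matched 1 row. The genes were chosen by values seen in earlier results of these libraries, and which of those values led to the choice is not recorded. Their levels are therefore given as a description, and the treatment tests below, which come from fits over all genes, are not independent support for any pattern among them. A filter on low counts over all 17 libraries kept 15458 genes, 9 of these 10 among them and *Anxa1* not.

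Galectins are lectins that bind beta-galactosides on glycoproteins, inside the cell and after release from it. Annexins bind acidic phospholipids of the membrane when calcium rises, and S100 proteins are small calcium-binding proteins that dock onto annexins and other partners. AHNAK is a very large scaffold protein that meets the complex of annexin A2 and S100A10 under the plasma membrane. In the brain these genes are known from reactive and immature glia, from progenitors and from cells of vessels and meninges, and S100B is in common use as an astrocyte marker.

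All 17 libraries came from C57BL/6 mouse brain without olfactory bulbs and cerebellum. Brains of postnatal day 2 had their meninges removed, and the cell suspension was depleted on dishes carrying antibodies against CD45 and O4 and then retained on a dish carrying an antibody against HepaCAM, an astrocyte surface protein. Cells were grown in serum-free medium. In the first experiment, cultures received SAG, an agonist of Smoothened and so of Sonic hedgehog signaling, at 500 ng/ml from day 3 in vitro for 3 days (n = 3), or its solvent DMSO (n = 3). In the second, cultures received the fibroblast growth factors FGF2 (n = 4) or FGF10 (n = 3), each at 50 ng/ml from day 2 in vitro for 7 days, or their solvent PBS (n = 4). The first experiment asks what hedgehog signaling changes in astrocytes and the second what FGF signals change. The paper calls the libraries biological replicates and, in the legend of its SAG result, sample pools. Neither the paper nor the labels say which libraries came from separate mice or cultures. Spreads and p-values therefore measure only the differences between these samples. The labels do not name a batch.

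Total counts ran from 17481727 to 68342287 per library. *Ptch1*, a hedgehog target and receptor, lay between 457 and 482 CPM (counts scaled to the library size after TMM normalization) in the SAG libraries and between 67.5 and 103 CPM in the DMSO libraries. Of 13 astrocyte markers, 12 averaged at least 10 CPM in every group, and the connexin gene *Gjb6* was at 0 in all groups but SAG. The microglial genes *Csf1r*, *Aif1*, *C1qb* and *Trem2* were at 0 in all 17 libraries, as were the fibroblast genes *Lum* and *Mgp* and the endothelial genes *Cldn5* and *Cdh5*. Libraries numbered 3 and 4 in the FGF experiment stood apart from those numbered 1 and 2 whatever the treatment. Since this division crosses all 3 groups, values of the FGF experiment are given within each set as well as over both. The labels give no reason for it.

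A group of 4 genes was lower together in replicates 3 and 4 of the FGF experiment, and the sequences in front of their starts are shown for that reason. RefSeq promoter entries on GRCm38.p6, which hold 250 bases before and 50 after a gene's start, exist here for 8 of the 10 genes. Each sequence runs 5′ to 3′ on the gene's strand and stops where the annotated transcript begins. Capitals mark matches on either strand to TGANTCA, the AP-1 motif, to GGAATG, the TEAD motif, and to GGGCGG, the SP/KLF motif.
Ahnak, chr19:8989034-8989283, plus strand: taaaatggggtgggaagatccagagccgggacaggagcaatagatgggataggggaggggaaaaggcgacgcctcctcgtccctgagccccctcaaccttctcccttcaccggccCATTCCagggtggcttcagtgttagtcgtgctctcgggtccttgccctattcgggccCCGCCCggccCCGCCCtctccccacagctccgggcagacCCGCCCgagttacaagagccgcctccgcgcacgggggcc
Anxa2, chr9:69453433-69453619, plus strand: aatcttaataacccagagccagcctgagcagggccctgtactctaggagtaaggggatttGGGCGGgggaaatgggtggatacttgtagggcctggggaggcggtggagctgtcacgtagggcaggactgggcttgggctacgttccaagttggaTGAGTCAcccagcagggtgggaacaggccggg
Anxa5, chr3:36475895-36476137, minus strand: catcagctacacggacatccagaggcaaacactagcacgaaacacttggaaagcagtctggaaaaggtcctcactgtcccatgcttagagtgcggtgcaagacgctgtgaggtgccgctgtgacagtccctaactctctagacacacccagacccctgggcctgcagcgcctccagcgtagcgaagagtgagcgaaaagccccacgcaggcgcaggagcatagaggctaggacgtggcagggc
S100a6, chr3:90612644-90612881, plus strand: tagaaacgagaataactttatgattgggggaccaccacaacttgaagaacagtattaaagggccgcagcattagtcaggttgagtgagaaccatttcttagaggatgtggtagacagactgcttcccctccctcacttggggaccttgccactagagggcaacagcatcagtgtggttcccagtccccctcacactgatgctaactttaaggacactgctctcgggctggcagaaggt
The 4 sequences have no motif in common. The *Ahnak* window of 300 bases held 1 TEAD and 4 SP/KLF matches, and the *Anxa2* window held 1 AP-1 and 3 SP/KLF matches. The *Anxa5* and *S100a6* windows held none of these letters. Over all 32851 mouse promoter entries of that length, 7.81% held the AP-1 motif, 14.7% the TEAD motif and 35.7% the SP/KLF motif. A match is a description of the letters and not a bound site. *S100a11*, which was not among the 4, held 2 AP-1 and 3 SP/KLF matches.

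The genes lie on 6 chromosomes of GRCm38 in the GENCODE M21 annotation. *Lgals1* lies at chr15:78926725-78930465, *Lgals3* at chr14:47367751-47386160, *Ahnak* at chr19:8989284-9076914, *Anxa1* at chr19:20373428-20390944, *Anxa2* at chr9:69453620-69491795 and *S100b* at chr10:76253853-76261159. Chromosome 3 holds *Anxa5* (chr3:36448923-36475894), *S100a6* (chr3:90612882-90624181), *S100a11* (chr3:93520488-93526287) and *S100a10* (chr3:93555080-93564643), and 28792 bp separate the end of *S100a11* from the start of *S100a10*. The protein-coding gene *Dip2a* overlaps *S100b* on the opposite strand and reached 54.5 CPM. Since the strand setting of the counting is not given, reads of this pair could be assigned to either gene. The pseudogenes *Lgals1-ps1*, *Lgals1-ps2* and *S100a11-ps* had no count in any library.

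In the set, 7 genes averaged at least 10 CPM. The method is meant to yield about 1 fragment per transcript, read from its 3ʹ end, so CPM values were not divided by length. Use of molecular identifiers, which mark copies of 1 fragment, is not given. CPM values are therefore shares of reads and may differ from relative transcript numbers. *Lgals1* had the highest mean level over the 17 libraries (130.3 CPM, range 19.2 to 542), followed by *S100a11* (129.6 CPM, 56.9 to 251), *S100a6* (80.8 CPM, 12.5 to 197), *Anxa5* (80.7 CPM, 26.8 to 147), *Ahnak* (78.8 CPM, 16.8 to 155), *S100a10* (73.5 CPM, 30.5 to 121) and *Anxa2* (59.0 CPM, 11.9 to 97.3). All 7 ranges overlap. *Lgals1* had the widest range and *S100a10* and *S100a11* the narrowest, as a ratio of highest to lowest library.

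**Figure D1:**
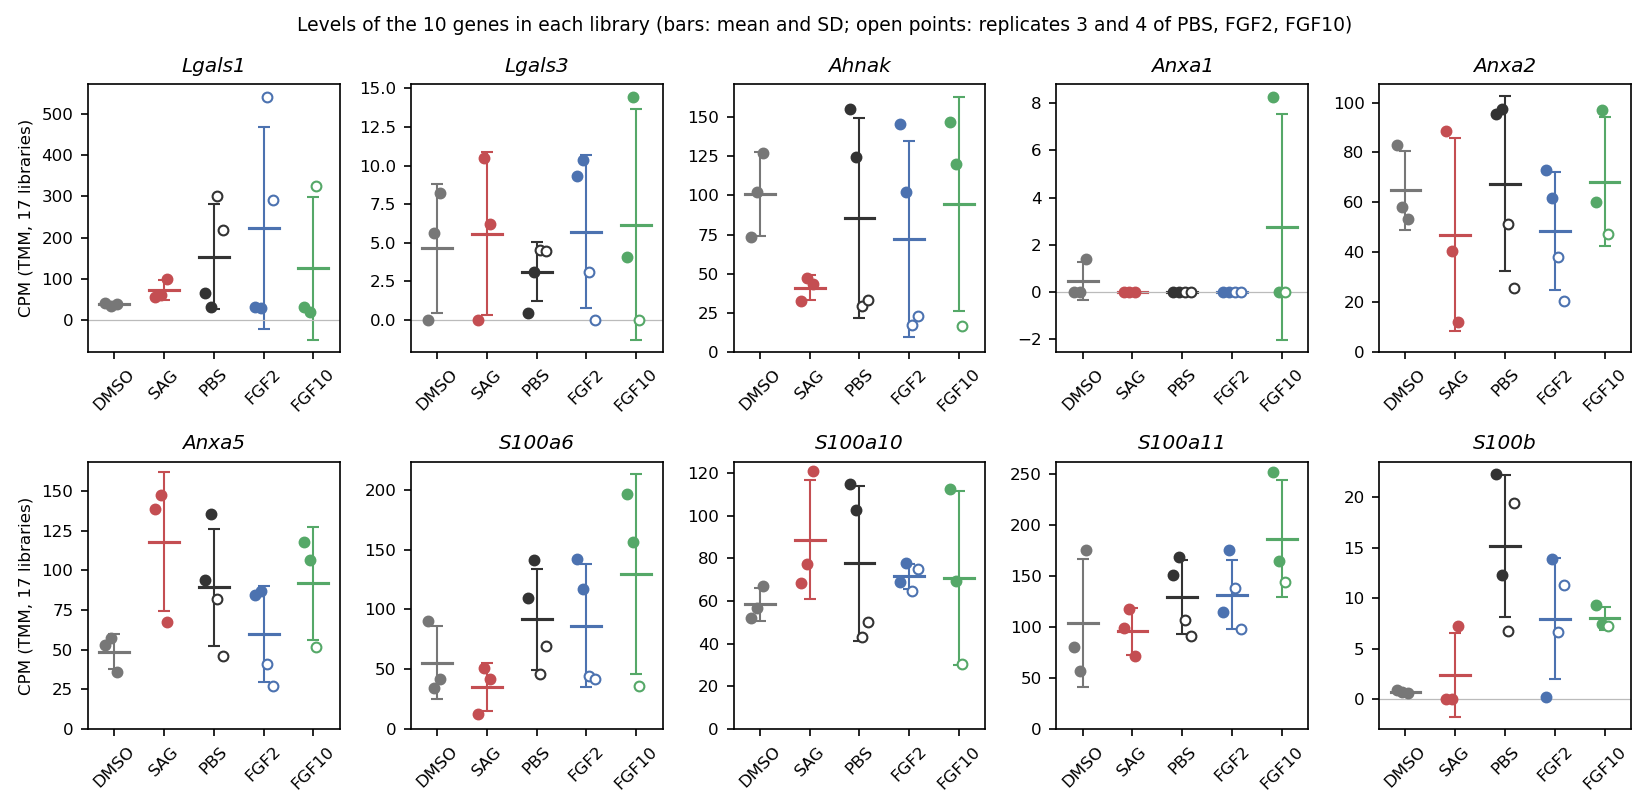
Each panel plots 1 gene, with groups on the horizontal axis and TMM-normalized CPM on the vertical axis. Points are libraries, bars are the mean and SD, and open points are replicates 3 and 4 of the PBS, FGF2 and FGF10 groups. Open *Lgals1* points lie between 217 and 542 CPM and the filled points of the same groups between 19.2 and 65.0 CPM, whereas open *Ahnak* points lie between 16.8 and 33.1 CPM and filled ones between 102 and 155 CPM.

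The other 3 genes averaged below 10 CPM. *Lgals3*, which encodes galectin-3, a lectin known from activated microglia and macrophages, reached at most 14.5 CPM (FGF10 replicate 2) and was at 0 in 4 libraries, 1 each of DMSO, SAG, FGF2 and FGF10. The 13 microglia and macrophage markers summed to between 0 and 45.7 CPM per library, and their part in *Lgals3* was not tested. *Anxa1*, encoding an annexin that acts through formyl peptide receptors, had 53 counts in DMSO replicate 3, 214 counts in FGF10 replicate 1 and none in the other 15 libraries. *S100b* reached 22.3 CPM in PBS replicate 1 and was at 0 in SAG replicates 1 and 2. In the same cultures *Sox9*, an astrocyte transcription factor, lay at 780 to 1727 CPM, and *Gfap* at 10.8 to 402 CPM. A library at 0 allows up to 3 counts, and this limit covers counting error only.

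*Lgals1* encodes galectin-1, a secreted lectin that is also found in neural progenitors. The DMSO libraries held 41.6, 33.3 and 38.8 CPM and the SAG libraries 56.1, 61.7 and 101 CPM. The 4 PBS libraries held 65.0, 30.4, 300.3 and 217 CPM, the FGF2 libraries 30.9, 28.6, 542 and 291 CPM and the FGF10 libraries 32.1, 19.2 and 326 CPM, each in the order of their replicate numbers. The 5 libraries numbered 3 or 4 in the FGF experiment were therefore above the 12 others, and no SAG library overlapped with DMSO. Ordered by mean level the groups ran FGF2, PBS, FGF10, SAG and DMSO, and only SAG and DMSO, the last neighbors in that order, did not overlap.

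*Ahnak* showed the opposite arrangement. It held 73.4, 102 and 127 CPM in DMSO and 32.4, 47.4 and 43.4 CPM in SAG. PBS libraries held 155, 125, 29.5 and 33.1 CPM, FGF2 libraries 146, 102, 16.9 and 23.0 CPM and FGF10 libraries 147, 120.1 and 16.8 CPM. The 5 libraries numbered 3 or 4 in the FGF experiment and the 3 SAG libraries held at most 47.4 CPM, and the other 9 at least 73.4 CPM.

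*S100a6* encodes calcyclin, an S100 protein named for its regulation over the cell cycle. DMSO libraries held 90.4, 34.3 and 42.1 CPM and SAG libraries 12.5, 51.1 and 42.0 CPM, which overlapped. PBS libraries held 109.8, 142, 45.7 and 69.8 CPM, FGF2 libraries 142, 117, 43.9 and 41.6 CPM and FGF10 libraries 197, 157 and 36.0 CPM. Replicates 1 and 2 of the FGF experiment were the 6 highest libraries of this gene.

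*Anxa2* and *Anxa5* are the annexins of the set that were read in every library. *Anxa2*, the partner of S100A10, held 82.9, 58.2 and 53.4 CPM in DMSO and 88.6, 40.4 and 11.9 CPM in SAG, so that the SAG replicates were spread wider than the difference between the groups. PBS held 95.5, 97.3, 51.4 and 25.4 CPM, FGF2 73.0, 61.9, 38.1 and 20.4 CPM and FGF10 60.2, 97.1 and 47.2 CPM. *Anxa5*, whose protein binds phosphatidylserine and is in wide use as a stain for dying cells, held 53.2, 57.1 and 36.2 CPM in DMSO and 139, 147 and 67.7 CPM in SAG. These groups did not overlap. PBS held 93.6, 135, 82.2 and 45.9 CPM, FGF2 84.3, 86.8, 41.2 and 26.8 CPM and FGF10 118, 106 and 51.4 CPM.

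*S100a10* encodes p11, the S100 protein that stays in its active form without calcium. It held 52.1, 56.5 and 67.1 CPM in DMSO and 68.3, 77.3 and 121 CPM in SAG, groups that did not overlap, with 67.1 and 68.3 CPM as their nearest libraries. In the FGF experiment it lay between 30.5 and 115 CPM, and the sets of replicates overlapped. *S100a11*, whose protein binds annexin A1, lay between 56.9 and 175 CPM in DMSO, between 71.6 and 118 CPM in SAG and between 90.8 and 251 CPM in the FGF experiment. Its FGF10 libraries held 251, 164 and 144 CPM, and every pair of neighboring groups in its order overlapped.

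Within the FGF experiment, 5 of the 10 genes did not overlap between replicates 3 and 4 and replicates 1 and 2, whatever the treatment. *Lgals1* averaged 335 ± 122 CPM (SD, n = 5) in replicates 3 and 4 and 34.4 ± 15.7 CPM (SD, n = 6) in replicates 1 and 2, a ratio of 9.76. *Ahnak* averaged 23.9 ± 7.36 CPM against 132 ± 20.2 CPM, a level 5.55-fold higher in replicates 1 and 2. *S100a6* averaged 47.4 ± 13.1 CPM against 144 ± 31.1 CPM. *Lgals1* was thus the 1 gene of the set without overlap in the upward direction and *Ahnak* and *S100a6* led those without overlap in the other.

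*Anxa2* and *Anxa5* completed the lower group. *Anxa2* averaged 36.5 ± 13.4 CPM in replicates 3 and 4 and 80.8 ± 17.9 CPM in replicates 1 and 2, and *Anxa5* 49.5 ± 20.4 CPM and 104 ± 19.9 CPM. *S100a10* (52.6 ± 17.4 against 90.9 ± 21.3 CPM) and *S100a11* (115 ± 24.1 against 171 ± 44.9 CPM) overlapped, as did the low genes *Lgals3*, *Anxa1* and *S100b*. In all, 1 of the 10 genes was higher without overlap and 4 were lower. Over the 15458 genes kept, 2.36% were higher and 2.19% lower in this sense. These values may have been among those that led to the choice of the genes, so nothing is read from the difference. In PBS alone the log2 ratio of replicates 3 and 4 to 1 and 2 was 2.44 for *Lgals1* and -2.16 for *Ahnak*, and in FGF2 alone it was 3.81 and -2.64. *S100a10* was at -1.22 in PBS but -0.07 in FGF2, and *S100a11* at -0.69 and -0.30. *Lgals3* went opposite ways, with 0.450 and 3.09 CPM in replicates 1 and 2 of PBS against 4.53 and 4.43 CPM in replicates 3 and 4, and 9.30 and 10.4 CPM against 3.12 and 0 CPM in FGF2.

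Markers of other cells moved with these sets. The summed level of 12 oligodendrocyte lineage markers was 3727 to 4549 CPM in replicates 3 and 4 and 2256 to 2528 CPM in replicates 1 and 2, and that of 8 cell cycle genes was 958 to 1429 CPM and 116 to 317 CPM. In the other direction, 13 astrocyte markers summed to 3853 to 4470 CPM and 5228 to 6269.6 CPM, 6 ependymal markers, with *Foxj1* the most abundant, to 88.5 to 233 CPM and 364 to 631 CPM, 11 neuronal markers, with *Tubb3* the most abundant and *Slc17a6* and *Slc17a7* at 0, to 30.8 to 58.3 CPM and 142 to 233 CPM, and 11 endothelial and mural markers to 41.0 to 99.1 CPM and 158 to 356 CPM. The mural gene *Acta2* supplied most of the last list. The part of these cells and of the cell cycle in the levels of *Lgals1*, *Ahnak*, *S100a6*, *Anxa2* and *Anxa5* was not tested. In bulk libraries, fewer cells of a type and less RNA per cell cannot be told apart.

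**Figure D2:**
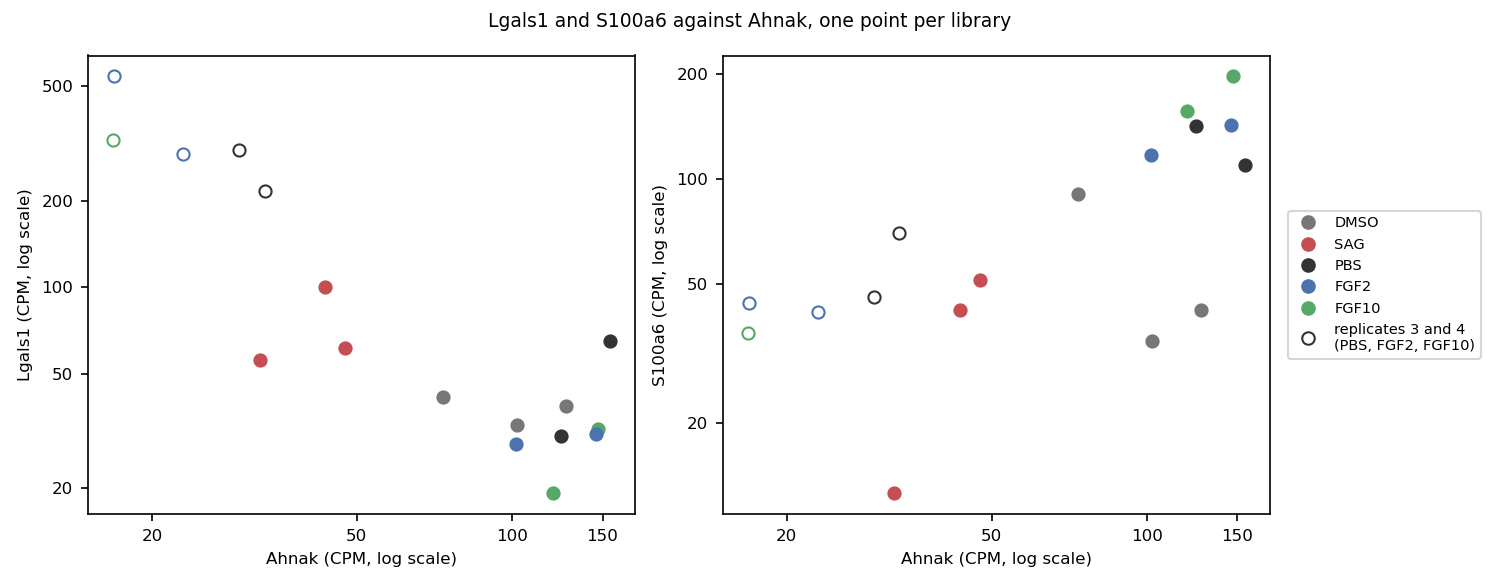
The level of *Ahnak* in CPM is on both horizontal axes and *Lgals1* (left) or *S100a6* (right) on the vertical axes, all on log scales, with 1 point per library and open points for replicates 3 and 4 of the PBS, FGF2 and FGF10 groups. The libraries of the FGF experiment with at most 33.1 CPM of *Ahnak* held 217 to 542 CPM of *Lgals1*, and the SAG libraries lie between them and the rest in *Lgals1*, apart from 1 PBS library at 65.0 CPM.

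Among the 7 genes above 10 CPM, the SAG estimates farthest from 0 were those of *Anxa5*, *Ahnak* and *Lgals1*. *Anxa5* averaged 118 ± 43.7 CPM (SD, n = 3) in SAG and 48.8 ± 11.1 CPM (n = 3) in DMSO, a log2(fold-change) of 1.29 (SE 0.36). *Ahnak* averaged 41.0 ± 7.80 CPM and 101 ± 27.0 CPM, a log2(fold-change) of -1.28 (SE 0.34). *Lgals1* averaged 72.8 ± 24.2 CPM and 37.9 ± 4.20 CPM, a log2(fold-change) of 0.97 (SE 0.38). None of the 3 passed: the adjusted p of edgeR's quasi-likelihood test (Benjamini-Hochberg, 12538 genes) was 0.433 for *Anxa5*, 0.425 for *Ahnak* and 0.746 for *Lgals1*, with unadjusted p of 0.00408, 0.00323 and 0.0278.

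edgeR called 8 of the 12538 genes (6 higher, 2 lower, 0.0638%) and 0 of the 9 genes of the set that entered, while 714 genes had an unadjusted p under 0.05. DESeq2's Wald test on the same counts called 367 genes, among them *Ahnak* (adjusted p = 0.00846) and *Anxa5* (adjusted p = 0.00923) but not *Lgals1* (adjusted p = 0.160). The remaining estimates of these 7 genes were 0.63 (SE 0.33) for *S100a10*, -0.45 (SE 0.59) for *Anxa2*, -0.63 (SE 0.59) for *S100a6* and -0.09 (SE 0.40) for *S100a11*, each with an adjusted p of 1.00 in edgeR. The estimate of *Anxa2* was 0.0031 without SAG replicate 3, the library in which it was at 11.9 CPM. That of *S100a10* was 0.33 without the same library.

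By ranges alone, *Lgals1*, *Anxa5* and *S100a10* were higher in every SAG library than in any DMSO library, and *Ahnak* was lower, against 4.91% and 6.86% of the 15458 genes. The oligodendrocyte lineage markers summed to 3997 to 4179 CPM in SAG and 2286 to 2812 CPM in DMSO, the neuronal markers to 26.1 to 75.4 CPM and 82.3 to 245 CPM and the ependymal markers to 109 to 160 CPM and 247 to 299 CPM. Their part in the 4 genes was not tested. The sums of astrocyte, cell cycle, endothelial and mural, microglial and fibroblast markers overlapped between SAG and DMSO.

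**Figure D3:**
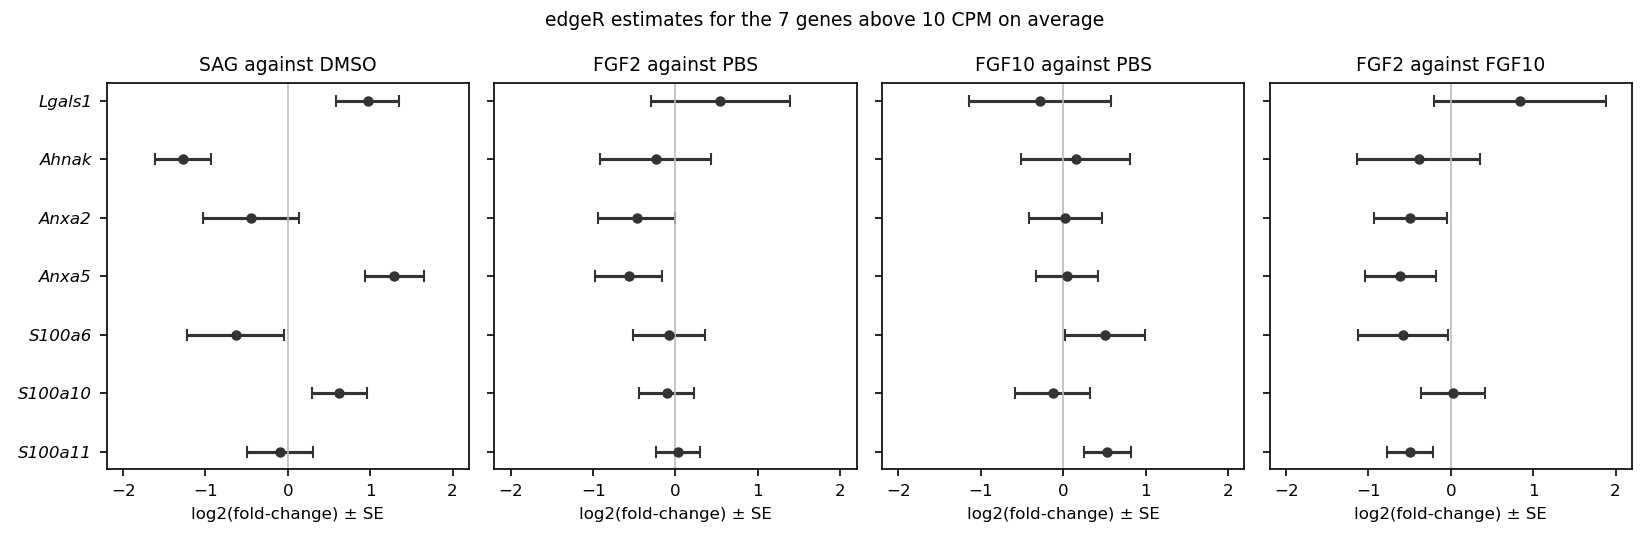
Points are log2(fold-change) estimates of edgeR and bars their SE, for the 7 genes of at least 10 CPM on average and the 4 comparisons. In SAG against DMSO the estimates of *Lgals1* (0.97), *Ahnak* (-1.28) and *Anxa5* (1.29) lie more than 2 SE from 0, and in the 3 FGF comparisons *Lgals1* and *Ahnak* have the widest bars.

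FGF2 and FGF10 left no gene of the set past the threshold. For FGF2 against PBS edgeR called 0 of 12744 genes (0%), with 223 at an unadjusted p under 0.05 and 9 called by DESeq2. For FGF10 against PBS it called 0 of 13309 (0%), with 305 and 37, and for FGF2 against FGF10 0 of 13493 (0%), with 324 and 28. No gene of the set was called in any of the 3 by either tool, and every adjusted p of the set in edgeR was 1.00. FGF2 against PBS and FGF10 against PBS share the PBS libraries.

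The estimates for *Lgals1* show how the division by replicate number entered. Its log2(fold-change) in FGF2 against PBS was 0.55 (SE 0.85) over all libraries, -0.67 (SE 0.54) within replicates 1 and 2 and 0.69 (SE 0.32) within replicates 3 and 4. With the set as a term in the fit, added after the data were seen, it was 0.01 (SE 0.32). The 2 sets thus gave opposite signs, and the difference between them was not tested. For *Ahnak* the estimate was -0.24 (SE 0.67) over all libraries and -0.40 (SE 0.25) with the set as a term, and both sets gave a negative sign (-0.16 and -0.64).

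*Anxa5* had the FGF2 estimate farthest from 0 among the 7 genes above 10 CPM. It was -0.57 (SE 0.41) over all libraries, -0.41 within replicates 1 and 2, -0.91 within replicates 3 and 4 and -0.66 (SE 0.28) with the set as a term, where edgeR's adjusted p was still 1.00. Within each set, FGF2 libraries of *Anxa5* were all below the PBS libraries, with 84.3 and 86.8 CPM against 93.6 and 135 CPM in replicates 1 and 2 and 41.2 and 26.8 CPM against 82.2 and 45.9 CPM in replicates 3 and 4. In FGF10 against PBS the *Anxa5* estimate was 0.05 (SE 0.38).

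FGF10 against PBS gave 0.54 (SE 0.28) for *S100a11*, 0.51 (SE 0.49) for *S100a6*, -0.28 (SE 0.86) for *Lgals1*, 0.16 (SE 0.66) for *Ahnak*, 0.03 (SE 0.44) for *Anxa2* and -0.13 (SE 0.45) for *S100a10*. FGF10 has no replicate 4 and so holds fewer libraries of the second set than PBS or FGF2. With the set as a term *Ahnak* was at -0.38 (SE 0.28) and *S100a6* at 0.06 (SE 0.30). FGF2 against FGF10, which shares the same FGF2 and FGF10 libraries, gave 0.84 (SE 1.05) for *Lgals1*, -0.39 (SE 0.75) for *Ahnak*, -0.61 (SE 0.43) for *Anxa5*, -0.58 (SE 0.55) for *S100a6*, -0.50 (SE 0.28) for *S100a11*, -0.49 (SE 0.44) for *Anxa2* and 0.03 (SE 0.38) for *S100a10*.

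The solvent groups of the experiments also allow a look at the genes without any treatment, although days in vitro, solvent and experiment changed together and cannot be told apart. *S100b* was the 1 gene whose PBS libraries (22.3, 12.3, 6.76 and 19.4 CPM) were all above the DMSO libraries (0.943, 0.677 and 0.557 CPM). Its mean was 20.9-fold higher in PBS, from 21 to 46 counts per DMSO library. Over the 15458 genes, 2.65% were higher and 3.00% lower in PBS in this sense, and none of the set was lower. The treated libraries did not follow this split in *S100b*. FGF2 replicate 1 held 0.165 CPM (9 counts), below every DMSO library, and SAG replicate 3 held 7.24 CPM, above PBS replicate 3. For other genes the answer differed between the sets of replicates. PBS replicates 1 and 2 were above DMSO without overlap in *Anxa2*, *Anxa5*, *S100a6* and *S100a10* besides *S100b*, 5 of the 10 genes, where 19.0% of the 15458 genes did not overlap, both directions counted. In contrast, PBS replicates 3 and 4 were above DMSO in *Lgals1* and *S100b* and below it in *Ahnak*, *Anxa2* and *S100a10*, again 5 of 10, where 22.5% of the 15458 genes did not overlap.

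The relatives and partners of the set were mostly scarce in these cultures. Of 7 other galectins that were counted, 2 averaged at least 10 CPM, *Lgals8* (45.5 CPM) and *Lgalsl* (36.0 CPM). Of 9 other annexins 2 did so, *Anxa6* (117 CPM) and *Anxa7* (24.1 CPM). Of 13 other S100 genes 3 did so, *S100a16* (72.6 CPM), *S100a13* (30.7 CPM) and *S100a1* (28.5 CPM), and 6 had no count in any library. *Anxa6* was therefore as abundant as the leading genes of the set, and the remaining annexins on this list were below *Anxa2* and *Anxa5* in mean level.

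Among 22 genes of partner proteins 9 averaged at least 10 CPM and 7 were at 0 throughout. The highest was *Itgb1*, encoding the beta-1 integrin that galectin-1 can bind (415 CPM), followed by *Capns1*, the regulatory subunit of the calpain proteases (288 CPM), *Plat*, tissue plasminogen activator, a ligand of annexin A2 (250.1 CPM), and *Chmp4b*, a component of the membrane repair machinery (245 CPM). *Plat* was the 1 gene of these 4 lists to separate the replicate sets, at 264 to 346 CPM in replicates 3 and 4 and 190.4 to 250.4 CPM in replicates 1 and 2. None of the other galectins, annexins and S100 genes did so.

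None of these relatives and partners passed edgeR's test in any comparison. In SAG against DMSO 2 galectins entered with 2 estimates above 0 and a median of 0.46, 6 annexins with 2 above and 4 below 0 and a median of -1.35, 3 S100 genes with 2 above and 1 below 0 and a median of 0.68, and 13 partners with 6 above and 7 below 0 and a median of -0.01, where all genes had a median of -0.02. Estimates among those above 10 CPM included 1.66 (SE 1.03) for *Anxa7*, -1.39 (SE 0.97) for *S100a1*, 1.09 (SE 1.05) for *S100a13* and, the lowest of the partners, -0.76 (SE 0.52) for *Mgat5*, which builds the branched glycans that galectins bind. Of the annexins that entered, only *Anxa6* (-0.15, SE 0.30) and *Anxa7* averaged at least 10 CPM. The SE of the other annexins ran from 2.86 to 3.74, so their median says little. In FGF2 against PBS the medians were -0.09 for galectins, 0.23 for annexins, 0.51 for S100 genes and 0.01 for partners, and in FGF10 against PBS they were 0.34, 0.36, 0.63 and 0.28, where all genes had medians of 0.0011 and -0.0016. In FGF2 against FGF10 they were -0.42, 0.05, -0.01 and -0.0020, where all genes had 0.01.

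*S100a16* had FGF estimates that were large beside their SE among these relatives, 0.56 (SE 0.24) for FGF2 and 0.44 (SE 0.28) for FGF10, each against PBS. *S100a13* had larger ones with wider errors (0.66, SE 0.57, and 0.81, SE 0.63). Among the partners *Capn2*, a calpain, stood at 0.61 (SE 0.29) for FGF2, *Pdcd6*, a calcium sensor that binds annexins, at -0.39 (SE 0.29) for FGF2 and -0.73 (SE 0.29) for FGF2 against FGF10, and *Pdcd6ip* at -0.58 (SE 0.47) for FGF10. All had an adjusted p of 1.00 in edgeR.

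The 7 genes above 10 CPM did not move as 1 block from library to library. Correlations were computed over the 17 libraries after the mean of each group was removed from log2(CPM + 1), and they carry the division by replicate number. *Lgals1* and *Ahnak* had a Pearson r of -0.94, *Lgals1* and *Anxa5* of -0.82, *Anxa2* and *Anxa5* of 0.84, and *Ahnak* and *S100a6* of 0.80. *Anxa2* and *S100a10*, whose proteins form 1 complex, had an r of 0.12. Their ratio, S100a10 over Anxa2, had a median of 1.20 and ran from 0.628 to 10.1, with the highest value in SAG replicate 3. *Lgals1* had a negative r with each of the other 6, and those 6 had positive values among themselves, between 0.12 and 0.84.

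**Figure D4:**
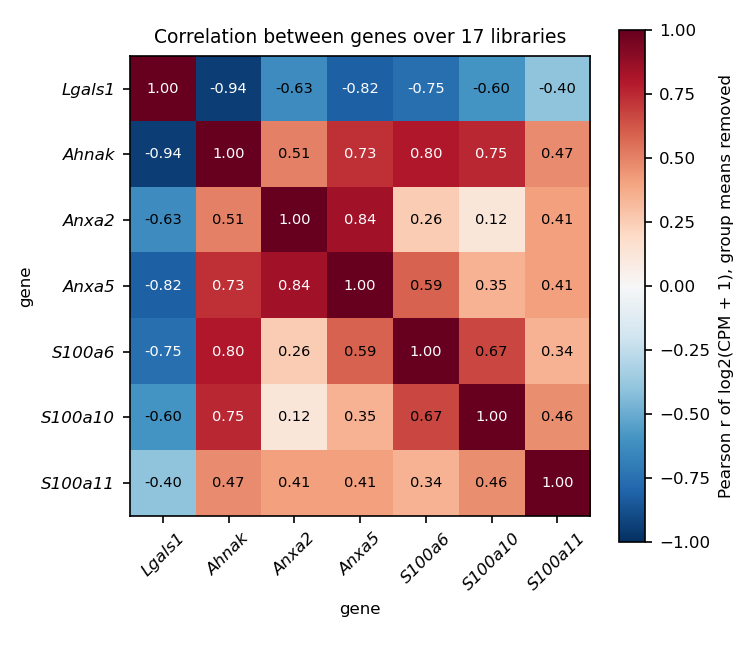
Each square is the Pearson r between 2 genes, over 17 libraries, of log2(CPM + 1) with group means removed, on a color scale from -1 to 1. *Lgals1* is negative with each other gene, from -0.94 with *Ahnak* to -0.40 with *S100a11*.

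The ratio of *Lgals1* to *Ahnak* was 0.160 to 0.419 in replicates 1 and 2 of the FGF experiment, 0.305 to 0.566 in DMSO, 1.30 to 2.32 in SAG and 6.57 to 32.1 in replicates 3 and 4 of the FGF experiment. The lowest 2 of these ranges overlap and the others do not. The highest value was that of FGF2 replicate 3.

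Among 9069 genes of at least 10 CPM on average, those whose pattern was most like each gene of the set differed between genes. For *Lgals1* they were *Igfbp2*, an IGF-binding protein (r = 0.97), *Zeb1*, a transcription factor (r = 0.95), and *Olig1*, a transcription factor of the oligodendrocyte lineage (r = 0.95). Mean levels of these 3 were 321, 480.1 and 1608 CPM in replicates 3 and 4 and 76.5, 275 and 588 CPM in replicates 1 and 2. For *Ahnak* they were *Fth1*, ferritin heavy chain (r = 0.97), the non-coding RNA *Meg3* (r = 0.96) and *Nfatc2*, a calcium-regulated transcription factor (r = 0.96). *Fth1* was also the gene with the most negative r to *Lgals1* (-0.97), and *Igfbp2* the one with the most negative r to *Ahnak* (-0.96).

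For the annexins and S100 genes the values were lower. *Anxa2* was most like *Dido1* (r = 0.93), *Fam210b* (0.91) and *Stox2* (0.91), and *Anxa5* most like *Nrxn2*, a presynaptic adhesion protein (0.92), *Dido1* (0.91) and *Gm15972* (0.91). *S100a6* was most like the mitochondrial ribosomal RNA *mt-Rnr2* (0.93), *Foxj1*, the master regulator of motile cilia (0.92), and the non-coding RNA *Neat1* (0.90). *S100a10* was most like *Glul*, glutamine synthetase of astrocytes (0.85), *Vps52* (0.85) and *Wwc1* (0.84), and *S100a11* most like *Hspbp1* (0.84), *Zdhhc6* (0.80) and *Zfp326* (0.78). Of these 21 pairs, 16 were kept with log2(CPM + 5) and 6 when group means were left in, so the names depend on the removal of group means. All points share libraries and depth, and no p-value is given.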

How the data were processed

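The authors prepared 3ʹ-end libraries (QuantSeq) from RNA of immunopanned astrocytes and, per the labels, aligned reads with STAR to GRCm38. The deposited values are read counts per gene without normalization, 1 column per library. Use of molecular identifiers and the strand setting are not given in the sources used here. Of 56805 rows, 114 were spike-ins (at most 86 counts per library) and were left out, and 77 symbols stand on more than 1 row. The labels list 4 FGF2 libraries where the methods give fewer, and all were used. No 2 libraries of a group were the same: the chi-square per degree of freedom was 152 to 532 over 21 pairs.

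The tests used edgeR 4.0.16 in R 4.3.3 (TMM, filterByExpr at 10 counts and a total of 15, quasi-likelihood test, Benjamini-Hochberg adjustment, call at an adjusted p under 0.05), with the libraries of each comparison alone, and DESeq2 1.42.0. Each SE was taken from the F statistic. Levels are CPM, TMM-normalized over 17 libraries. The test was also run on simulated counts, which varied less between libraries than these and held no division by replicate number. In the data, edgeR's common coefficient of variation between libraries, beyond counting error, was 107% to 115% over the 4 comparisons. The simulated run therefore does not measure the power or error of the test here. Genes named are the 10, their 3 most alike genes, from the relatives and partners the most abundant gene and, among those of at least 10 CPM, those with the largest estimates, and of the marker lists those at 0 and the most abundant. *Igfbp2* and *Fth1* as opposite patterns, *Sox9*, *Gfap* and the other relatives were named after their values were seen. The members and lists were chosen with earlier results of these data known. Alternatives were another normalization, other filters, all groups in 1 fit, a replicate block, single sets, left-out libraries and DESeq2.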

Additional observations from a re-analysis of the deposited data

How the results depend on the processing

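edgeR's count of genes called in SAG against DMSO (8) was 76 without a filter and 42 when genes needed a mean of 10 counts. With all 5 groups in 1 fit it was 4. DESeq2 called 367 genes, 2 of them in the set. The study applied its own, stricter threshold to DESeq2. At that threshold DESeq2 gave 158 genes here and edgeR 4. The cause of these differences was not tested. With 1 library left out, edgeR's count was 1 without DMSO replicate 1 and 2 without SAG replicate 2 or 3. It was 5 without DMSO replicate 2 or 3 and 7 without SAG replicate 1. Fewer samples entered these fits. FGF2 against PBS gave 9 calls, FGF10 against PBS 37 and FGF2 against FGF10 28 with DESeq2, and the last 2 without a filter and 36 within replicates 3 and 4, where the lone FGF10 library is assumed to vary like the others. None of these fits but DESeq2 called a gene of the set. Estimates for the 3 genes below 10 CPM were not compared. Same-numbered libraries did not pair: the correlation of their deviations was -0.011 to 0.00075 in SAG against DMSO, 0.098 to 0.110 in FGF2 against PBS, 0.052 to 0.104 in FGF10 against PBS and 0.065 to 0.156 in FGF2 against FGF10, and 0 of 3, 2 of 4, 2 of 3 and 2 of 3 libraries correlated best with their own number. With the replicate block the calls were 12, 0, 0 and 0, and the sign turned for *S100a11* in SAG against DMSO (0.057), *S100a10* in FGF2 against PBS (0.016) and, in FGF10 against PBS, *Ahnak* (-0.30), *Anxa2* (-0.25) and *Anxa5* (-0.22). Within replicates 1 and 2 it turned in FGF2 against PBS for *Lgals1* (-0.67), *S100a6* (0.057) and *S100a11* (-0.13), in FGF10 against PBS for *Ahnak* (-0.069), *Anxa2* (-0.29) and *Anxa5* (-0.032), and in FGF2 against FGF10 for *S100a10* (-0.30). Within replicates 3 and 4 it turned in FGF2 against PBS for *S100a10* (0.59), in FGF10 against PBS for *Lgals1* (0.33), *Ahnak* (-0.90), *Anxa5* (-0.32) and *S100a6* (-0.69), and in FGF2 against FGF10 for *Ahnak* (0.26) and *S100a6* (0.26). With the set as a term, an alternative chosen after seeing the data, it turned for *S100a10* in FGF2 against PBS (0.015), for *Ahnak* (-0.38), *Anxa2* (-0.041) and *Anxa5* (-0.13) in FGF10 against PBS and for *Ahnak* in FGF2 against FGF10 (0.038). With 1 library left out, the estimates that turned ran in SAG against DMSO from -1.28 to 0.0031 for *Anxa2* and from -0.39 to 0.50 for *S100a11*. In FGF2 against PBS they ran from -0.38 to 1.10 for *Lgals1*, -0.85 to 0.22 for *Ahnak*, -0.43 to 0.20 for *S100a6*, -0.31 to 0.14 for *S100a10* and -0.13 to 0.18 for *S100a11*. In FGF10 against PBS they ran from -2.58 to 0.27 for *Lgals1*, -0.33 to 0.64 for *Ahnak*, -0.33 to 0.25 for *Anxa2*, -0.19 to 0.33 for *Anxa5* and -0.64 to 0.22 for *S100a10*, and in FGF2 against FGF10 from -0.10 to 3.13 for *Lgals1*, -0.99 to 0.073 for *Ahnak* and -0.34 to 0.52 for *S100a10*. *Ahnak*, *Lgals1* and *Anxa5* kept their direction in SAG against DMSO under every alternative run. Of the 21 most alike pairs 6 were shared when group means were left in.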
